A study of Mus musculus with 6 samples.

Results

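Transcripts of CaM kinase II, calmodulin and their close postsynaptic partners were measured in RNA from mouse brain synaptosomes, which are sealed nerve endings, often with a piece of the facing postsynaptic membrane, that form when brain is homogenised. The set held every non-control probe whose gene name in the array annotation was Camk2a, Camk2b, Camk2d, Camk2g, Camk2n1, Calm2, Calm3, Nrgn or Ddn, which gave 17 probes of 9 genes among the 55681 non-control probes of the array. A probe was tested where at least 3 of the 6 arrays read it well above background, which left 15 of the 17, among 29318 tested probes of 20996 gene names. The study set 3 knock-in samples against 3 wild-type samples, one single-colour Agilent array each. Its title concerns microRNAs that act on FMR1 and the neurodegenerative disease FXTAS, and the comparison asks which synaptosomal transcripts differ with the genotype.

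The sample names and the series design call the mutant group knock-in, while the genotype field of those samples reads knock-out; they are called knock-in here. The labels give no allele, strain, age, sex or treatment for either group, and nothing in them ties the samples to separate animals, so p-values here measure the spread of these 6 samples alone, which may be technical. All 6 samples had an RNA integrity number of 10. The amount of RNA entering the labelling was 0.2 µg for 5 samples and is given as 0.0 µg for knock-in replicate 1. Of the arrays, 4 shared slide 1 (all knock-in replicates together with wild-type replicate 3) and 2 shared slide 2 (wild-type replicates 1 and 2). The 75th percentile of the processed signal lay between 823 and 910 on slide 1 and at 578 and 580 on slide 2. All 11 pan-neuronal markers (Snap25, Syt1, Syn1 and others) were measured, as were 8 of 8 astrocyte, 7 of 7 oligodendrocyte and 7 of 7 microglia markers, so the preparation also held transcripts of glia. Of 10 cerebellar neuron markers 8 were measured, and Gabra6 and Cbln3 of the granule cells did not pass the filter.

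CaM kinase II is the most abundant kinase of the postsynaptic density. It is a holoenzyme of many subunits, encoded by Camk2a, Camk2b, Camk2d and Camk2g, that is switched on by calcium-loaded calmodulin and stays active after it phosphorylates itself, which makes it central to long-term potentiation. Camk2n1 encodes a small protein that inhibits the kinase. Calm2 and Calm3 encode the same calmodulin protein from separate genes. Nrgn encodes neurogranin, which holds calmodulin at low calcium and releases it when calcium rises. Ddn encodes dendrin, a postsynaptic protein. The mRNAs of Camk2a, Nrgn and Ddn are known to be carried into dendrites, where some are translated near the synapse, so they can enter a synaptosome preparation.

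Probes are named here by the base of the transcript at which they start, as the array annotation gives it, and coordinates are on mouse build mm9. Camk2a had 2 measured probes, starting at bases 919 and 4200. Camk2b had 2 on the minus strand, at base 1554 (chr11:5872636-5872695) and base 3944 (chr11:5869675-5869734). Calm2 had 2, at bases 924 (chr17:87832973-87833032) and 1127 (chr17:87832770-87832829), and Calm3 had 2, at bases 718 (chr7:17502158-17502217) and 2142 (chr7:17500734-17500793), all on the minus strand. The distance between the probes was the same on the transcript as on the genome for Camk2a (3281 bases), Calm2 (203 bases) and Calm3 (1424 bases), so no intron lies between them, whereas for Camk2b it was 2390 bases on the transcript and 2961 on the genome. Camk2d had 3 measured probes, at bases 1941, 2124 and 4011 (chr3:126543223-126543282, chr3:126545798-126545857 and chr3:126547685-126547744), and Camk2g, Camk2n1, Nrgn and Ddn had 1 each (chr14:21554122-21554181, chr4:138013368-138013427, chr9:37352694-37352753 and chr15:98635118-98635177).

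The following 30-base stretches of probes, written 5′ to 3′ in the sense of the transcript, show what the paired probes of one gene read. They were chosen because several results below turn on a difference between 2 probes of a gene. Capitals mark the polyadenylation signal AATAAA, searched on the sense strand only, which lies near the end of many transcripts. The downstream Calm2 and Calm3 probes carry it, the other 3 stretches have no capitals.
Calm2 base 1127 (chr17:87832770-87832799): ccaagttgtatatttgttttccAATAAAaa
Calm3 base 2142 (chr7:17500734-17500763): tatatcaatgttttccAATAAAatacagtg
Calm3 base 718 (chr7:17502188-17502217): gttctagcaaacagcaattgattgactgag
Camk2b base 1554 (chr11:5872666-5872695): cctgaagctctgggcaacctggtcgaaggg
Camk2b base 3944 (chr11:5869705-5869734): tttctgagccttgtaggtgtacaaaactta
Over the whole 60 bases, 3 of the 15 tested member probes held AATAAA, the third being the downstream Camk2a probe, against 12.6% of the 29318 probes tested. The untested Camk2a probe held it too.

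None of the 15 tested member probes differed between knock-in and wild type by limma's test at an adjusted p of 0.05 over all probes (background 0.00682% of probes, 2 of 29318). The smallest adjusted p was 0.478, and 1 member probe, lower in knock-in, had an unadjusted limma p under 0.05 (background 6.13% lower and 4.29% higher). Each difference is a log2 value, knock-in minus wild type, after scaling every array to its 75th percentile. They lay between -0.73 and 0.17, with a median of -0.14 against a median of -0.05 over all probes. In this scaling 14 of 15 member probes were lower in knock-in, where 58.3% of all probes were. That count was 7 of 15 with the authors' value table, 8 of 15 after scaling to the pan-neuronal markers and 9 of 15 with array weights. With the authors' value table the median was 0.016 for members and -0.0091 for all probes. With pan-neuronal scaling these medians were -0.0064 and 0.085. That scaling moves the difference of every probe by the same amount, so it cannot show whether members stay lower than probes at large. With array weights they were -0.072 and -0.032. For 3 member probes all knock-in arrays lay below all wild-type arrays (background 12%), and for 0 they lay above (background 7.93%). Probes of one gene share their target and are not independent of each other.

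**Figure D1:**
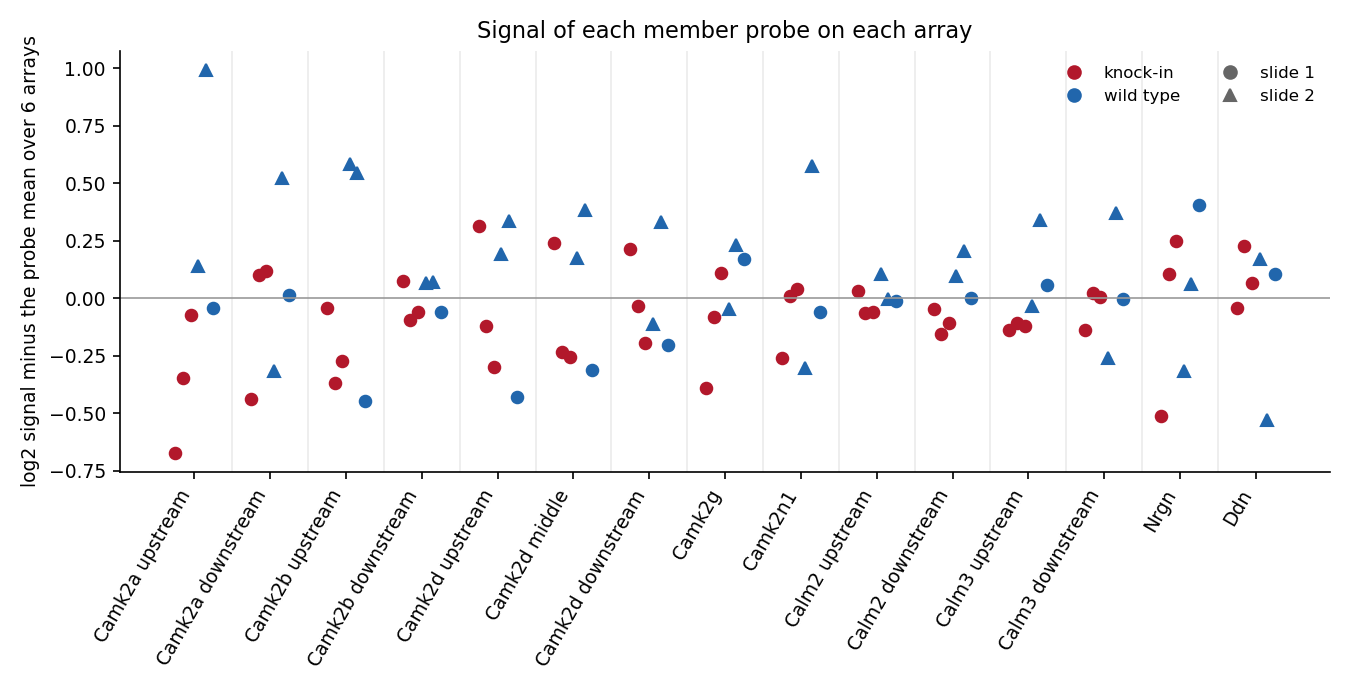
Each column is a member probe and each point an array: the vertical axis gives the log2 signal, scaled to the array's 75th percentile, minus the mean of that probe over the 6 arrays. Red is knock-in and blue wild type, circles are slide 1 and triangles slide 2. The groups separate for the upstream Camk2a, downstream Calm2 and upstream Calm3 probes; for the upstream Camk2b probe the blue triangles stand apart from the blue circle.

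Camk2a, which encodes the alpha subunit typical of the forebrain, had the largest difference of the set, and it was seen by one of its probes. The 2 tested probes lie on the plus strand (chr18:61144458-61144517 and chr18:61147739-61147798). The upstream probe (base 919) read 2.27, 2.59 and 2.87 on the arrays of knock-in replicates 1, 2 and 3, against 3.08, 3.93 and 2.90 on those of wild type, in log2 units above the 75th percentile. All knock-in arrays lay below all wild-type arrays, but knock-in replicate 3 and wild-type replicate 3, which share a slide, nearly touched. The means were 2.58 ± 0.30 and 3.30 ± 0.55 (SD, n = 3 each). The difference of -0.73 (SE 0.30, 95% interval -1.45 to -0.0046) put knock-in at 0.604 of wild type, with limma's unadjusted p = 0.0489 and adjusted p = 0.478, and an exact two-sided permutation p of 0.1, which is the lowest value a 3-against-3 design can reach. Within slide 1, where wild-type replicate 3 is the only wild-type array, the difference was -0.32. Without wild-type replicate 2 it was -0.41, and with the authors' value table (-0.65) the groups overlapped.

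The downstream Camk2a probe (base 4200) read 4.52, 5.06 and 5.08 on the knock-in arrays against 4.64, 5.48 and 4.97 on the wild-type arrays. The groups overlapped fully, and replicate 1 of each genotype was the lowest of its group. The difference was -0.15 (SE 0.26, 95% interval -0.76 to 0.47, limma's adjusted p = 0.815), and it turned to 0.034 with array weights, to 0.037 without knock-in replicate 1 and to 0.079 without wild-type replicate 2. In unscaled processed signal this probe gave 20305, 30347 and 30798 on the knock-in arrays against 14464, 25958 and 25869 on the wild-type arrays. The unscaled means were higher in knock-in for 14 of 15 member probes. The slide 1 arrays, which hold all knock-in replicates, were also brighter as a whole. This count therefore cannot be read as a trait of the members. The third Camk2a probe reads a different annotated transcript, ENSMUST00000115297, from base 439 (chr18:61102991-61103050). It stood clear of background on 1 knock-in and 1 wild-type array and was not tested. Its unscaled signals were 9.9, 42.5 and 4.1 on the arrays of knock-in replicates 1, 2 and 3, against 9.9, 18.5 and 567 on those of wild type, so 1 wild-type array stood far from the rest.

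Camk2b encodes the beta subunit, which binds actin in the spine. Its upstream probe (base 1554) read 2.21, 1.88 and 1.98 on the knock-in arrays against 2.83, 2.79 and 1.80 on the wild-type arrays. Both wild-type arrays of slide 2 lay above the knock-in arrays, while the wild-type array of slide 1 was the lowest of all 6. The difference was -0.45 (SE 0.29, limma's adjusted p = 0.556). Within slide 1 it was 0.22, and without wild-type replicate 3 it was -0.79 with the groups separate (limma's adjusted p = 0.192). The downstream probe (base 3944) spanned only 6.11 to 6.28 over the 6 arrays, with a difference of -0.054 (SE 0.11, 95% interval -0.31 to 0.20), which turned to 0.031 within slide 1, 0.051 with quantile normalization, 0.031 with cyclic loess, 0.080 with pan-neuronal scaling and 0.047 with the authors' value table.

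Camk2d and Camk2g encode the delta and gamma subunits, which are also widely expressed outside the brain. The 3 tested Camk2d probes had differences of -0.069, -0.17 and -0.010 (SE 0.25, 0.22 and 0.18; limma's adjusted p between 0.762 and 0.984), in order along the transcript. Their arrays overlapped fully. All 3 read highest in wild-type replicate 2 and knock-in replicate 1 and lowest in wild-type replicate 3, with the downstream probe at 3.44, 3.20 and 3.04 on the knock-in arrays against 3.12, 3.56 and 3.03 on the wild-type arrays. Within slide 1 the 3 differences turned to 0.39, 0.23 and 0.20. The fourth Camk2d probe, named for the cDNA AK142435, was well above background on 0 arrays. Camk2g read 5.61, 5.92 and 6.11 on the knock-in arrays against 5.95, 6.23 and 6.17 on the wild-type arrays, a difference of -0.24 (SE 0.16, 95% interval -0.63 to 0.15, limma's adjusted p = 0.573). Wild-type replicate 1 lay among the knock-in arrays, and the sign stayed negative in all 22 alternative settings, between -0.35 and -0.10.

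The inhibitor gene Camk2n1 read 6.04, 6.31 and 6.34 on the knock-in arrays against 5.999, 6.88 and 6.24 on the wild-type arrays. The groups overlapped: wild-type replicate 2 was the highest array and wild-type replicate 1 the lowest. The difference was -0.14 (SE 0.24, 95% interval -0.71 to 0.43, limma's adjusted p = 0.807), and 0.11 without wild-type replicate 2.

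**Figure D2:**
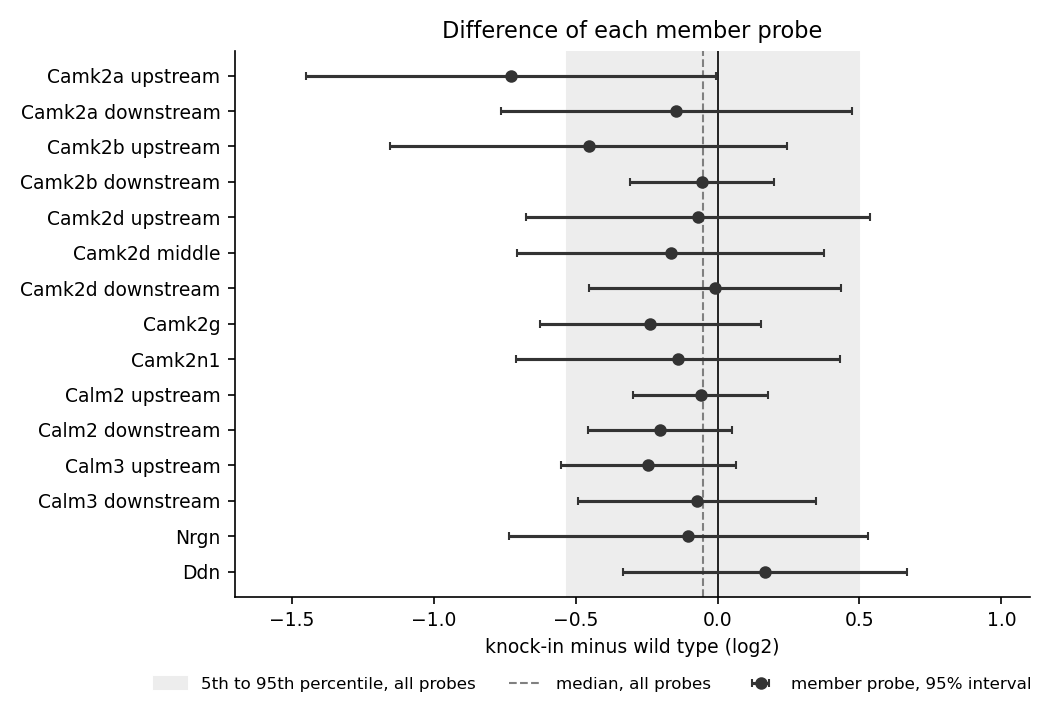
Points give the difference, knock-in minus wild type in log2, of each member probe with limma's 95% interval; the shaded band spans the 5th to 95th percentile of all 29318 probes (-0.53 to 0.50) and the dashed line is their median. The upstream Camk2a probe is the only member whose point lies outside the band, and every interval but that one includes 0.

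Both Calm2 probes spanned a narrow range over the arrays. The upstream Calm2 probe (base 924) read 8.30, 8.21 and 8.21 on the knock-in arrays against 8.38, 8.27 and 8.26 on the wild-type arrays, with overlap and a difference of -0.060 (SE 0.099, 95% interval -0.30 to 0.18). It turned to 0.15 with the authors' value table. The downstream Calm2 probe (base 1127), at the polyadenylation signal, read 7.65, 7.54 and 7.59 on the knock-in arrays against 7.79, 7.90 and 7.70 on the wild-type arrays. All knock-in arrays lay below all wild-type arrays, by a small margin. The difference was -0.20 (SE 0.11, 95% interval -0.46 to 0.050), knock-in at 0.869 of wild type, with limma's adjusted p = 0.518 and an exact permutation p of 0.1. It was -0.10 within slide 1, -0.048 with quantile normalization and 0.031 with the authors' value table.

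The upstream Calm3 probe (base 718) read 5.53, 5.56 and 5.54 in knock-in, a spread of 0.015 (SD, n = 3), and 5.63, 6.005 and 5.72 in wild type. The groups did not overlap, and they stayed apart with normexp, quantile normalization, cyclic loess, the median of detected probes, pan-neuronal scaling and the authors' value table. The difference was -0.24 (SE 0.13, 95% interval -0.55 to 0.064), knock-in at 0.845 of wild type, with limma's adjusted p = 0.519 and an exact permutation p of 0.1. It was -0.18 within slide 1, -0.13 without wild-type replicate 2 and -0.11 with pan-neuronal scaling. The downstream Calm3 probe (base 2142) read 3.18, 3.34 and 3.32 on the knock-in arrays against 3.06, 3.69 and 3.32 on the wild-type arrays, with full overlap and a difference of -0.073 (SE 0.17).

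Neurogranin (Nrgn) read 5.17, 5.79 and 5.93 on the knock-in arrays against 5.37, 5.74 and 6.09 on the wild-type arrays. The groups overlapped fully, and replicate 1 was the lowest array of each. The difference was -0.10 (SE 0.26, 95% interval -0.74 to 0.53, limma's adjusted p = 0.875), and it ranged from -0.46 within slide 1 to 0.13 without knock-in replicate 1. Dendrin (Ddn) was the only member with a higher mean in knock-in, at 4.32, 4.59 and 4.43 against 4.54, 3.83 and 4.47. Wild-type replicate 2 alone was low and the other 5 arrays overlapped. Its difference of 0.17 (SE 0.21, limma's adjusted p = 0.738) turned to -0.056 without wild-type replicate 2.

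The probes of one gene were next set against each other within each array, which removes the scaling. In 6 such pairs, the brightest measured probe of a gene minus each other one, 2 lay wholly higher in knock-in (background 8.11% of 8322 pairs) and 0 wholly lower (background 11.9%). The downstream minus the upstream Camk2a probe was 2.25, 2.47 and 2.21 on the knock-in arrays against 1.56, 1.55 and 2.08 on the wild-type arrays. All knock-in arrays were higher, by 0.58 on average, with an exact permutation p of 0.1, the smallest possible, and 0.30 after Benjamini-Hochberg adjustment over the 6 pairs. The 2 wild-type arrays of slide 2 stood lowest, and within slide 1 the difference was 0.23. The same measure for Camk2b was 4.07, 4.23 and 4.17 on the knock-in arrays against 3.44, 3.49 and 4.34 on the wild-type arrays (exact permutation p = 0.4). There the slides separated and the genotypes did not: wild-type replicate 3 had the highest value, and within slide 1 the difference turned from 0.40 to -0.19.

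For Calm2 the upstream minus the downstream probe was 0.65, 0.67 and 0.62 on the knock-in arrays against 0.59, 0.37 and 0.56 on the wild-type arrays, higher by 0.14 (exact permutation p = 0.1, adjusted 0.30). The groups were separate, and without wild-type replicate 2 the difference was 0.074. The corresponding Calm3 difference was -0.17 with overlap (exact permutation p = 0.2), and those of Camk2d were 0.059 and 0.16. Written as downstream minus upstream, the difference was positive for the Camk2a, Camk2b, Camk2d and Calm3 pairs and negative for Calm2. Over all 4149 pairs of probes on one transcript, its median was -0.039, with 42.6% of pairs positive, and 7.4% lay wholly higher in knock-in.

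**Figure D3:**
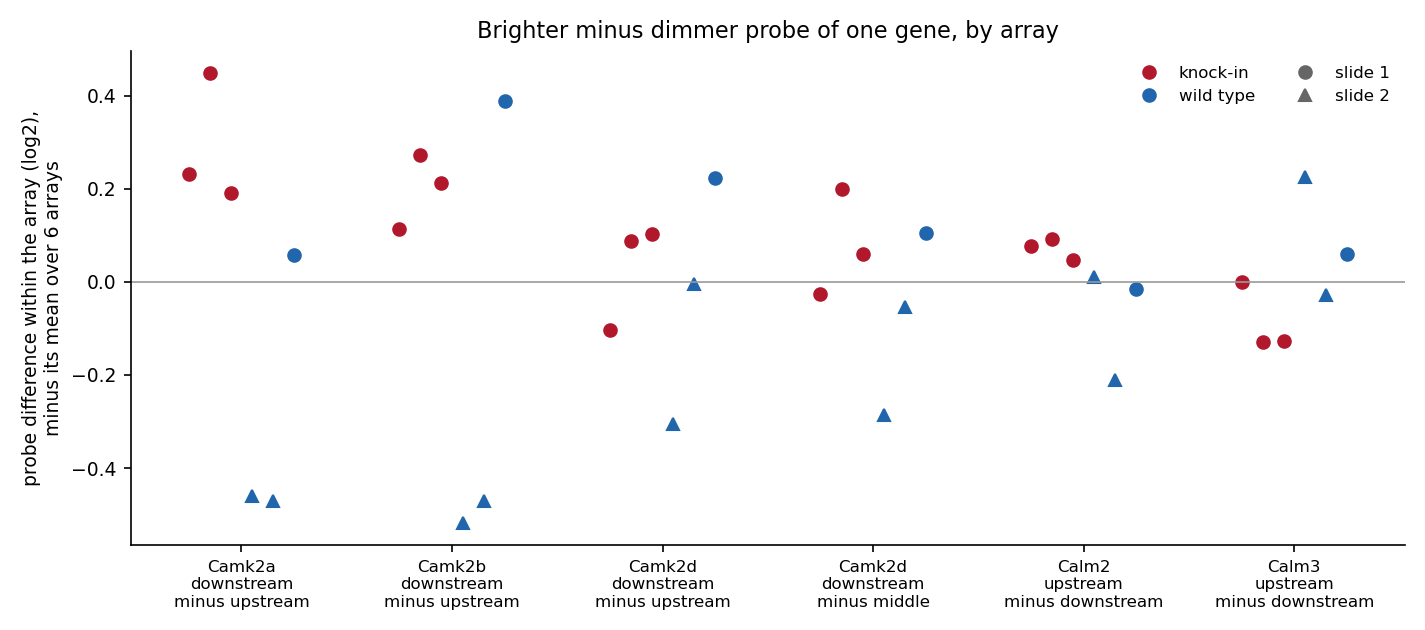
Each column is a pair of probes of one gene; points give the brighter minus the dimmer probe on one array in log2, minus the mean of that pair over the 6 arrays, with red for knock-in, blue for wild type, circles for slide 1 and triangles for slide 2. The triangles are lowest for both the Camk2a and the Camk2b pair, and for Camk2b the blue circle is the highest point.

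Slide and genotype are partly confounded in this design. For 3 of 15 member probes (upstream Camk2a, upstream Camk2b and downstream Calm2) both slide 2 arrays lay above all slide 1 arrays, against 17.2% of all probes, and for 0 they lay below, against 9.2%. On slide 1 alone, 10 of 15 member probes were lower in knock-in than in wild-type replicate 3, with differences between -0.46 and 0.39 and a median of -0.023. That comparison rests on 1 wild-type array. Of the 6 probe pairs, 3 (those of Camk2a and Camk2b and the downstream minus the middle Camk2d probe) had both slide 2 arrays below all slide 1 arrays, against 17.6% of all pairs.

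Several members followed the arrays more than the genotype. In both groups, replicate 1 was the lowest array for the downstream Camk2a probe, Camk2n1, Nrgn, Camk2g and the downstream Calm3 probe. For the upstream Calm3 probe, whose groups did not overlap, replicate 1 was also the lowest of each group. Markers of striatal medium spiny neurons (12 of 12 measured, all 12 with a higher knock-in mean, 0 without overlap, median 0.83) were high in the same arrays. Of these, Drd2 and Six3 cleared the background on all 3 knock-in arrays but on 1 of wild type. Both thus entered the list values through the knock-in group. Relative to the mean of the 6 arrays they read 2.05, 0.57 and -0.99 on the knock-in arrays against 1.42, -1.53 and -1.51 on the wild-type arrays, and their summed level ranged from 58.3 to 322 in knock-in and from 51.3 to 227 in wild type, in multiples of the 75th percentile. The mean of the cortical and hippocampal excitatory neuron markers (9 of 9 measured) went the other way. It read -0.31, 0.020 and 0.12 on the knock-in arrays against -0.11, 0.11 and 0.16 on the wild-type arrays. The summed levels of these markers were 50 to 73.7 in knock-in and 58.9 to 77.8 in wild type. Not all of them followed the mean: Spink8 was highest in replicate 1 of both groups, and Prox1 was highest in wild-type replicate 1. Choroid plexus markers (5 of 6 measured) had summed levels of 0.448 to 1.64 in knock-in and 0.375 to 1.59 in wild type. Among them Ttr also cleared the background on all 3 knock-in arrays but on 1 of wild type. In such bulk RNA fewer terminals of a neuron type and less RNA per terminal cannot be told apart. The part of these regional differences in the members' values was not tested. Without replicate 1 of both groups, a setting chosen after seeing the data, 14 of 15 member probes were lower, 6 wholly so (28.5% of all probes were in that setting), and 0 passed the threshold.

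**Figure D4:**
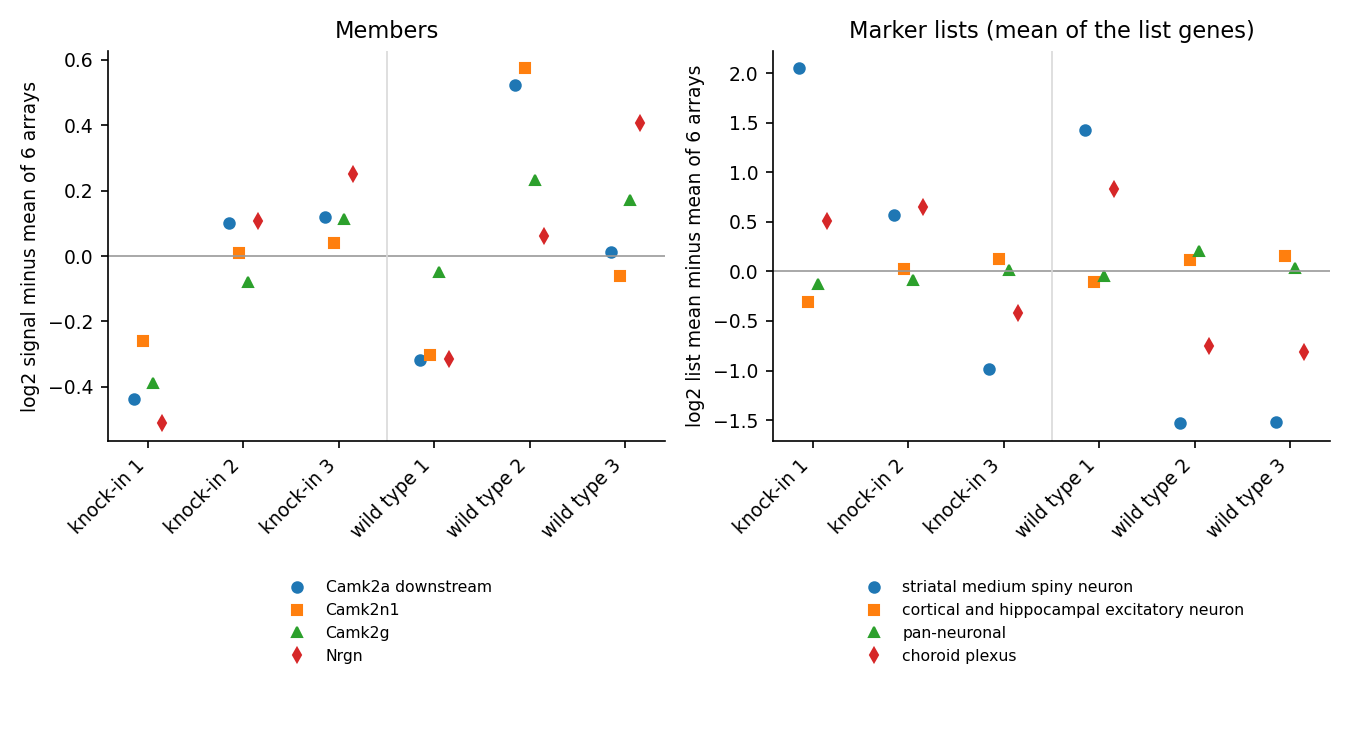
The left panel gives the log2 signal of 4 members on each array and the right panel the mean log2 level of 4 marker lists, each minus its mean over the 6 arrays; arrays are on the horizontal axis, and the vertical line separates the groups. Replicate 1 of each group is low for the downstream Camk2a probe, Camk2n1 and Nrgn in the left panel and high for striatal markers in the right panel.

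The pan-neuronal markers had a lower median in knock-in, as the members did, but not every member followed them over the arrays. Pearson r with the list mean over the 6 arrays ranged from 0.94 for upstream Camk2a to -0.77 for Ddn. Of the 11 markers, 9 were lower in knock-in, with a median difference of -0.14. Taken in the same way, by the brightest probe of each gene, the 9 members had a median of -0.10. Relative to the mean of the 6 arrays the list read -0.13, -0.086 and 0.013 on the knock-in arrays against -0.041, 0.20 and 0.039 on the wild-type arrays, highest in wild-type replicate 2, and its summed level was 848 to 955 in knock-in and 873 to 1095 in wild type. With arrays scaled to this list, which moved the median of all probes from -0.05 to 0.085, the members' median difference was -0.0064 and the upstream Camk2a difference -0.59 (limma's adjusted p = 0.511). Oligodendrocyte markers had a median difference of 0.27, with 6 of 7 higher in knock-in, and astrocyte markers one of -0.12, with 5 of 8 lower.

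Among other genes of calcium and calmodulin signalling, 70 of 73 listed genes were measured by their brightest probe and 0 passed limma's adjusted threshold (smallest adjusted p = 0.431). They divided into 38 lower and 32 higher in knock-in with a median of -0.028. There were 2 lower and 4 higher genes with an unadjusted p under 0.05 (background 6.13% lower and 4.29% higher), and 8 lay wholly below and 5 wholly above wild type (background 12% and 7.93%). The lists were calcineurin and its regulators, other CaM kinases, calmodulin-binding proteins, calmodulin-regulated enzymes and pumps, anchors and phosphatases of CaM kinase II, and other mRNAs found in dendrites.

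Calcineurin is the calcium- and calmodulin-dependent phosphatase that opposes many actions of CaM kinase II. Its catalytic subunit gene Ppp3cb read 4.02, 4.00 and 4.15 on the knock-in arrays against 4.39, 4.41 and 4.30 on the wild-type arrays. These groups did not overlap, and the difference of -0.31 (SE 0.10) had an unadjusted limma p of 0.0196 and an adjusted p of 0.453. Ppp3ca differed by -0.11, also without overlap, while the regulators Rcan3 and Rcan1 differed by 0.38 and 0.32 with overlap. Over the 9 measured genes of this list 4 were higher and 5 lower, with a median of -0.0089.

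Of the other CaM kinases and their regulators, 8 of 12 were lower, with a median of -0.11. Camk1d differed by -0.25 (SE 0.13) without overlap and the myosin light chain kinase Mylk by -0.58 (SE 0.27) with overlap. Dapk1 was wholly higher, by 0.19 (SE 0.10), and Camk1g differed by 0.25 with overlap. Among calmodulin paralogs and small calmodulin-binding proteins, 5 were higher and 5 lower. Gap43, the growth-cone protein that binds calmodulin as neurogranin does, differed by -0.26 (SE 0.14) and Marcksl1 by 0.53 (SE 0.26), each with overlap. Calml4 cleared the background on all 3 arrays of knock-in but on 1 of wild type, so it entered the test through the knock-in group and no fold is given. It read -4.05, -3.38 and -5.35 on the knock-in arrays against -4.48, -7.24 and -7.47 on the wild-type arrays, and wild-type replicate 1 lay among the knock-in arrays.

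Among calmodulin-regulated enzymes and pumps, 8 were higher and 7 lower. The plasma membrane calcium pump genes went both ways: Atp2b4 differed by -0.48 (SE 0.19) without overlap, Atp2b1 by 0.64 (SE 0.36) without overlap, where wild-type replicate 2 read 2.21 against 3.47 and 3.59, and Atp2b3 by 0.34. The transcription activator gene Camta2 differed by -0.24. Anchors and phosphatases of the kinase had 7 higher and 6 lower genes. Lrrc7, which encodes the densin scaffold that binds CaM kinase II, differed by 0.56 (SE 0.20, limma's adjusted p = 0.458), Ppp1cb by 0.16, the actinin gene Actn4 by -0.34 (without overlap) and the NMDA receptor subunit gene Grin2b, a docking site of the kinase, by -0.18.

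Of 17 other mRNAs known in dendrites, 8 were higher and 9 lower, with a median of -0.069, and 3 lay wholly above and 2 wholly below wild type (background 7.93% and 12%). Arc differed by 1.16 (SE 0.28, limma's adjusted p = 0.431), and Map2, the dendritic microtubule protein gene, read 4.70, 4.86 and 4.67 on the knock-in arrays against 4.30, 4.52 and 4.43 on the wild-type arrays, a difference of 0.33 (SE 0.11, limma's adjusted p = 0.458). On the lower side Sipa1l1 differed by -0.26 and Cnksr2 by -0.18, both without overlap. Of the members named above as carried into dendrites, Camk2a by its brightest probe, Nrgn and Ddn overlapped between groups. The upstream Camk2a probe did not overlap.

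The genes whose brightest probe followed the downstream Camk2a probe most closely over the 6 arrays were Prickle1 (Pearson r = 0.999), Pcbp4 (r = 0.999), Prss23 (r = 0.993), Edc4 (r = 0.993) and Snapc4 (r = 0.993). With 6 arrays that share scaling, 600 of 13646 named genes had r over 0.9, so these names describe this set of arrays. Prickle1 read 4.67, 5.11 and 5.11 on the knock-in arrays against 4.76, 5.44 and 5.06 on the wild-type arrays, with replicate 1 of each group lowest, as for Camk2a.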

How the data were processed

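Total RNA was labelled with Cy3 and hybridised to single-colour arrays, per the labels. Per the file headers, the authors used Agilent Feature Extraction (version 10.7.3.1) and deposited spot intensity on a linear scale, detrended within each array and not normalized between arrays. A second table deposited by the authors holds log2 values with column medians of 6.55 to 6.56; each column ranked the probes as that array's unprocessed median signal did (Spearman 1.0000). The sources used here do not give its normalization.

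Control spots were left out, and outlier spots were left out unless all spots of the probe were outliers. The 75th percentile was taken over all non-control spots, outliers included. No non-control spot was saturated. Log2 processed intensities were centred on each array's 75th percentile, spots of a probe were averaged, and 29318 of 55681 probes well above background on at least 3 arrays were fitted with limma 3.58.1 in R 4.3.3 (two-sided), with Benjamini-Hochberg adjustment over these probes. A gene in a list is its brightest tested probe. The fit was tested on simulated data. Names and coordinates are those of the array annotation; older symbols were matched through the RefSeq table of GRCm38.p6. Named genes were all members, up to 2 genes of smallest p in each direction per list, and the 5 closest to Camk2a. One gene that this rule names is not reported here. Members, lists and alternatives were chosen with earlier results of these data known. Replicate numbers did not pair all the samples: same-numbered deviations correlated at 0.36, -0.039 and 0.22. The wild-type array closest in deviations had the same number for knock-in replicates 1 and 3, and was replicate 3 for knock-in replicate 2.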

Additional observations from a re-analysis of the deposited data

How the results depend on the processing

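No member probe passed limma's adjusted threshold in any of the 22 alternative settings, where the smallest adjusted p was 0.192 (upstream Camk2b without wild-type replicate 3). The fit with the replicate block, whose numbers did not pair all the samples, called 0 of 29318 probes instead of 2 and 0 members. The upstream Camk2a and Calm3 probes and Camk2g stayed lower in knock-in in every setting that tested them. Directions of other members turned; the cause was not tested. Array weights gave 9 lower member probes instead of 14, with the downstream Camk2a probe at 0.034, Camk2d upstream at 0.0092 and downstream at 0.065, Camk2n1 at 0.017 and downstream Calm3 at 0.026. The authors' value table gave 7 lower and 1 wholly lower (9.41% of all probes), with downstream Camk2b at 0.047, downstream Camk2d at 0.036, Camk2n1 at 0.016, Calm2 at 0.15 and 0.031, downstream Calm3 at 0.019 and Nrgn at 0.050. Pan-neuronal scaling moved the median of all probes to 0.085 and gave 8 lower member probes. It put downstream Camk2b at 0.080, Camk2d at 0.065 and 0.12, upstream Calm2 at 0.074, downstream Calm3 at 0.062 and Nrgn at 0.031. The medians were 0.14 for calmodulin paralogs and 0.15 for anchors and phosphatases. Downstream Camk2b, downstream Camk2d and upstream Calm2 turned to 0.051, 0.040 and 0.10 with quantile normalization and to 0.031, 0.033 and 0.063 with cyclic loess, and downstream Camk2d to 0.020 with normexp. Slide 1 alone and slide as a fixed block gave Camk2b 0.22 and 0.030, Camk2d 0.39, 0.23 and 0.20, Ddn -0.023 and a median of 0.27 for calmodulin paralogs; slide 1 alone left 5 members wholly lower (34.8% of all probes) and turned the Camk2b pair to -0.19 and the Camk2d pairs to -0.19 and -0.028. Leaving out replicate 1 of both groups, added after seeing the data, left 6 wholly lower (28.5% of all probes). Leaving out 1 array at a time gave 3 to 5 wholly lower members (5 without knock-in replicate 1, where 16.6% of all probes were; 14.5% to 23.5% over these settings) and a median for calmodulin paralogs of -0.15 to 0.096. Directions turned within these ranges: downstream Camk2a -0.34 to 0.079, upstream Camk2d -0.30 to 0.083, downstream Camk2d -0.12 to 0.15, Camk2n1 -0.33 to 0.11, downstream Calm3 -0.22 to 0.094, Nrgn -0.29 to 0.13, Ddn -0.056 to 0.30 and the Camk2d downstream minus upstream pair -0.080 to 0.19. The number of arrays limits the precision.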
